A study of Mus musculus with 20 samples.

Results

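The genes described here are 9 members of the phosphoinositide 3-kinase (PI3K) and AKT pathway in mouse liver: Pik3c2g, Pik3c2a, Pik3ca, Pik3cb, Pik3cd, Pik3r1, Pik3r2, Akt1 and Akt2. They were taken by symbol from a table of read counts for 46095 genes. All 9 were present, and all 9 were among the 14440 genes with enough counts to test. The pathway is one the study itself named from these livers, and Pik3c2g was picked because its response to diet differed between genotypes. Its own values are therefore given as a description, without a test, and the other 8 members are not independent evidence for the pathway.

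Total RNA of liver was sequenced after library construction by Illumina protocols. There were 4 groups of 5 mice, all aged 31 to 33 weeks. WT chow and WT NASH mice were wild type and had been fed a chow diet or a NASH diet (a diet that produces nonalcoholic steatohepatitis, fatty liver with inflammation) for 24 weeks. KO chow and KO NASH mice were liver-specific Pck1 conditional knockouts (Pck1-cKO) fed the same diets for the same time. Pck1 encodes the cytosolic phosphoenolpyruvate carboxykinase of gluconeogenesis. The promoter driving the deletion and the strain have no entry in the sources used here, nor has any floxed allele of the wild types. The labels number the mice within a group and say no more about how they relate, so p-values measure the spread between these samples.

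PI3Ks are lipid kinases that phosphorylate inositol lipids of membranes. Class I enzymes pair a catalytic subunit (p110α, p110β or p110δ, from Pik3ca, Pik3cb and Pik3cd) with a regulatory subunit (p85α or p85β, from Pik3r1 and Pik3r2), and make PIP3 when insulin or another ligand engages its receptor. PIP3 recruits AKT, of which Akt2 is the main form in hepatic insulin action. Class II enzymes have no such regulatory subunit and work on endosomal membranes: Pik3c2a is broadly expressed, whereas Pik3c2g is restricted mainly to liver and a few other tissues and is known for sustaining Akt2 activity on endosomes.

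The promoter sequences of 4 members are shown: Pik3c2g, its class II relative Pik3c2a, the adaptor gene Pik3r1, and Akt1, whose window holds a motif match. All 9 members matched the RefSeq promoter table (build GRCm38.p6), with 17 annotated starts between them. Each run is the 250 bases before the first listed start, written 5′ to 3′ on the strand of the gene. Capitals mark a match to a motif searched on both strands: the STAT motif TTCNNNGAA or the forkhead motif GTAAACA.
Pik3c2g, chr6:139613822-139614071, plus strand: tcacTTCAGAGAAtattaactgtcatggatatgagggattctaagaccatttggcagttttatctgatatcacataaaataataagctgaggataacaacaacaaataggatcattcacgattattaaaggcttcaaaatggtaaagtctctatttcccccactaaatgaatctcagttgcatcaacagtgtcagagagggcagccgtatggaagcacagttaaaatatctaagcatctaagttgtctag
Pik3c2a, chr7:116443459-116443708, minus strand: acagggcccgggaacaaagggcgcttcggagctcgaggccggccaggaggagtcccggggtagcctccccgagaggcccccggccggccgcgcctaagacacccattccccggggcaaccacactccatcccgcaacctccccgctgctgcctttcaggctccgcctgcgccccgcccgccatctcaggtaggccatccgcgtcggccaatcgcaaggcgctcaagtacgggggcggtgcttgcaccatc
Pik3r1, chr13:101768218-101768467, minus strand: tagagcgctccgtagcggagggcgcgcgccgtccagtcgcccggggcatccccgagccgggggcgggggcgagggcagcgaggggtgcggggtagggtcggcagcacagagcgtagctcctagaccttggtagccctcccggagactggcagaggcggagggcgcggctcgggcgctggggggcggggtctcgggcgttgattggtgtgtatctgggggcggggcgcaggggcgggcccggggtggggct
Akt1, chr12:112674885-112675134, minus strand: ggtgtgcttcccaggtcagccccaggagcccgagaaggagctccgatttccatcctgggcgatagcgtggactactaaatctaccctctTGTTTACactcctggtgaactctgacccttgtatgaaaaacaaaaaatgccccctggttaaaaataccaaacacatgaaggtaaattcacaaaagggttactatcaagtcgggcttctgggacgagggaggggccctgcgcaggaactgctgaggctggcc
The Pik3c2g window was 36.0% G and C, against 71.2% for Pik3c2a, 76.4% for Pik3r1, 52.0% for Akt1 and a median of 52.4% over 32851 windows of the same length. At the second listed start, the windows were 40.0% for Pik3c2g, 42.4% for Pik3r1 and 78.4% for Akt1, so the order of base composition depends on the start taken. The first 20 bases after the first Pik3c2g start were not found in a GENCODE transcript of the gene, and those after the second were. Those after the listed starts of Pik3c2a, Pik3ca and Pik3cb were not found either. For Pik3r1 and Akt1 they were found at both starts. Pik3c2g held 1 STAT match starting 246 bases before the first start and none in its second window, and the first Akt2 window, not printed, held another at 160 bases. A STAT match was present in 7.02% of all windows. The forkhead match of Akt1 began 161 bases before the start and was present in 3.17% of all windows. The E-box CACGTG, found in 6.02% of all windows, had no match in any of the 17. The motifs do not overlap each other in these windows, and a match is a description of letters only.

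In the GRCm38 annotation (GENCODE), Pik3c2g lies on chromosome 6 from 139587221 to 139969284 on the plus strand, with 15 transcripts and 12647 bases of exon, so that the RefSeq start used above falls inside the GENCODE gene. Pik3c2a lies on chromosome 7 from 116337265 to 116443449 on the minus strand. Its exons share 1369 bases with the antisense gene Gm44777, and those of Pik3r2 share 45 bases with 6330537M06Rik. The strand setting of the counting is not given in the labels, so reads in those stretches cannot be assigned to one gene or the other.

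Libraries held 9958935 to 20601955 counted reads. Pck1 separated the genotypes as labelled, at 3573 ± 1139 CPM (SD, n = 5) in WT chow and 2290 ± 511 in WT NASH, against 626 ± 175 in KO chow and 445 ± 112 in KO NASH. CPM are counts scaled to library size, here by the trimmed mean of M-values (TMM). The 5 hepatocyte markers (Alb, Ttr, Apoa1, Hnf4a and Cps1) summed to 43115 CPM or more in every library. The labels give no sex. Read from Y-linked genes, all 5 WT chow mice were male. WT NASH had 4 females, replicate 4 being its 1 male. KO NASH had 4 males, with replicate 2 female, and KO chow had 3 males, with replicates 3 and 5 female. Diet in wild type and sex therefore nearly coincide. Genotype on the NASH diet is also largely confounded with sex, since WT NASH was mostly female and KO NASH mostly male. In 6 libraries, long genes had lower values relative to short ones than in the other 14: the slope of log2 CPM on log2 exonic length, each library against the mean of all, ran from -0.34 to -0.25 in the 6 and from 0.01 to 0.19 in the 14. They were KO chow replicates 4 and 5, replicate 4 of WT NASH, and 3 WT chow libraries (replicates 3, 4 and 5). KO NASH replicates 1 and 5 were the closest pair of any group (chi-square of their counts 7.98 per degree of freedom, against 21.6 for the next pair), which is more than sampling noise, and they were kept as 2 mice. Livers were sequenced in bulk, so fewer cells of a type and less RNA per cell cannot be told apart.

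Pik3c2g, the liver-enriched class II enzyme, was highest in knockout livers on chow and lowest in knockout livers on the NASH diet. In WT chow replicates 1 to 5 it stood at 4.44, 4.44, 2.99, 5.98 and 3.26 CPM, and in WT NASH at 5.68, 5.10, 3.87, 2.21 and 4.20 CPM. In KO chow the values were 13.2, 11.9, 5.20, 7.62 and 10.9 CPM, and in KO NASH 1.88, 2.27, 1.43, 1.87 and 2.63 CPM. The wild-type groups covered the same range, and every KO NASH library lay below every KO chow library, as was so for 4.31% of all genes.

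Group means of Pik3c2g were 4.22 ± 1.19 CPM in WT chow and 4.21 ± 1.33 in WT NASH, against 9.75 ± 3.27 in KO chow and 2.01 ± 0.455 in KO NASH (SD, n = 5). These levels rest on 15 to 295 reads per library. The fitted log2 difference between the diets was 0.01 (SE 0.283) in wild type and -2.27 (SE 0.291) in knockout livers, a fold of 0.207. Knockout against wild type was 1.21 (SE 0.281) on chow, a fold of 2.31, and -1.08 (SE 0.288) on the NASH diet, a fold of 0.474. The interaction, which is the diet difference in knockout minus that in wild-type livers, was -2.29 (SE 0.402).

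Among neighbours in the order of group levels, KO chow and WT chow overlapped, since KO chow replicate 3 (5.20 CPM) lay below WT chow replicate 4 (5.98 CPM). KO NASH and WT NASH overlapped through a single library, WT NASH replicate 4 at 2.21 CPM, which is also the only male of its group and a library with a slope below 0. The 4 WT NASH females spanned 3.87 to 5.68 CPM and the 1 KO NASH female stood at 2.27 CPM. Males alone gave 7.62 to 13.2 CPM in KO chow (n = 3), 2.99 to 5.98 in WT chow (n = 5) and 1.43 to 2.63 in KO NASH (n = 4). With males alone the log2 difference of KO NASH from WT NASH was -0.14 rather than -1.08, that of WT NASH from WT chow was -0.96 rather than 0.01, and the interaction was -1.52. Each of those values rests on the single WT NASH male. The difference of KO NASH from KO chow was -2.48 in males and -1.81 in females, rather than -2.27. The female value rests on 1 KO NASH and 2 KO chow libraries.

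**Figure D1:**
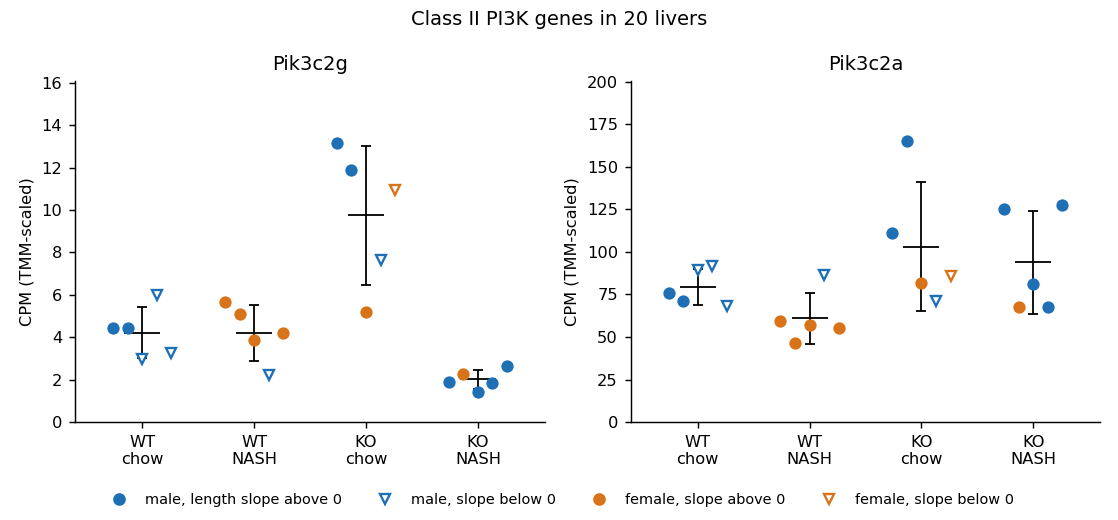
Levels of the class II genes Pik3c2g and Pik3c2a in CPM (TMM-scaled, vertical axis from 0) in each of the 20 livers by group, with bars at the mean ± SD of 5. Colour gives sex read from counts and open triangles the 6 libraries with a length slope below 0. KO chow libraries of Pik3c2g sit between 5.20 and 13.2 CPM and KO NASH libraries between 1.43 and 2.63 CPM.

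Pik3c2a, the ubiquitous class II enzyme of endocytic membranes, was called by edgeR in none of the 5 comparisons over all 20 libraries. It stood at 76.1, 71.3, 89.2, 91.5 and 68.5 CPM in WT chow and at 59.2, 46.7, 57.0, 86.5 and 55.4 CPM in WT NASH. KO chow values were 111, 165, 81.6, 71.2 and 85.7 CPM, and KO NASH values 125, 67.9, 81.0, 67.5 and 127 CPM. KO chow replicates 1 and 2 and KO NASH replicates 1 and 5 were the high libraries, and all groups overlapped. The log2 difference of KO NASH from WT NASH was 0.62 (95% interval 0.11 to 1.14, adjusted p = 0.115 in edgeR's quasi-likelihood test with Benjamini-Hochberg adjustment over all genes). Over the 14 libraries with a slope above 0, which leave out the WT NASH male, it was 0.78, with an adjusted p of 0.0275 in edgeR. With sex as a term it was 0.30 (adjusted p = 0.521 in edgeR), with sex and slope as terms 0.25, and in males alone 0.24. Its interaction was 0.24 (95% interval -0.48 to 0.97, adjusted p = 0.936 in edgeR). Per kilobase of exon, Pik3c2g made up 4.48% ± 1.05 of the summed level of the class II pair in WT chow and 6.13% ± 2.52 in WT NASH, against 7.88% ± 2.14 in KO chow and 1.97% ± 0.636 in KO NASH (SD, n = 5).

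Pik3r1 encodes the regulatory subunit p85α, which holds p110 stable and in check until a receptor is engaged. Its values in WT chow were 79.7, 76.8, 51.8, 56.5 and 69.9 CPM, and in WT NASH 102, 102, 115, 52.5 and 113 CPM. In KO chow they were 37.1, 40.5, 49.3, 28.0 and 37.9 CPM, and in KO NASH 40.7, 72.1, 70.2, 83.1 and 40.2 CPM. Every KO chow library lay below every WT chow library and, in a pair of groups not compared here, below every WT NASH library. The other pairs of groups overlapped.

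The KO chow group of Pik3r1 was 0.576 of WT chow, a log2 difference of -0.80 (SE 0.242, adjusted p = 0.0585 in edgeR), which missed the threshold of 0.05. Groups that did not overlap, with the first group lower, were found for 2.65% of all genes in this comparison. The test passed with sex as a term (-1.002, adjusted p = 0.0157 in edgeR), with the length slope as a term (-0.89, adjusted p = 0.0119 in edgeR) and in DESeq2 (-0.79, adjusted p = 0.0195). It also passed on leaving out KO chow replicate 3 or WT NASH replicate 4, with an adjusted p of 0.0243 to 0.0468 in edgeR. Over the 14 libraries with a slope above 0 it did not (-0.88, adjusted p = 0.0735 in edgeR). Those keep only replicates 1 and 2 of WT chow and replicates 1, 2 and 3 of KO chow. Of 34 alternatives in all, 27 left the difference uncalled. Among those were no low-count filter (adjusted p = 0.129 in edgeR) and a replicate block (0.0636).

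On the NASH diet the knockout difference in Pik3r1 was -0.66 (SE 0.242, adjusted p = 0.088 in edgeR). The diet differences were 0.53 in wild type (adjusted p = 0.2 in edgeR) and 0.67 in knockout livers (adjusted p = 0.119 in edgeR), with an interaction of 0.14 (95% interval -0.57 to 0.84, adjusted p = 0.965 in edgeR). WT NASH replicate 4 weighed on these. Without it, the knockout difference on the NASH diet was -0.82 (adjusted p = 0.0286 in edgeR) and the diet difference in wild type 0.68 (adjusted p = 0.0466 in edgeR). The 4 WT NASH females spanned 102 to 115 CPM and the male stood at 52.5 CPM. With sex as a term the diet difference in wild type was 0.10 and the knockout difference on the NASH diet -0.33, and neither was called.

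Pik3c2a and Pik3r1 ran opposite to each other across libraries. Over the 20 libraries the Spearman correlation of their log2 CPM was -0.78, and the Pearson correlation of deviations from the group means was -0.59. The points share library depth and group structure, so this is a description. KO NASH replicates 1 and 5 held the 2 highest Pik3c2a values of their group and the 2 lowest Pik3r1 values, and KO chow replicate 2 the highest Pik3c2a value of all.

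**Figure D2:**
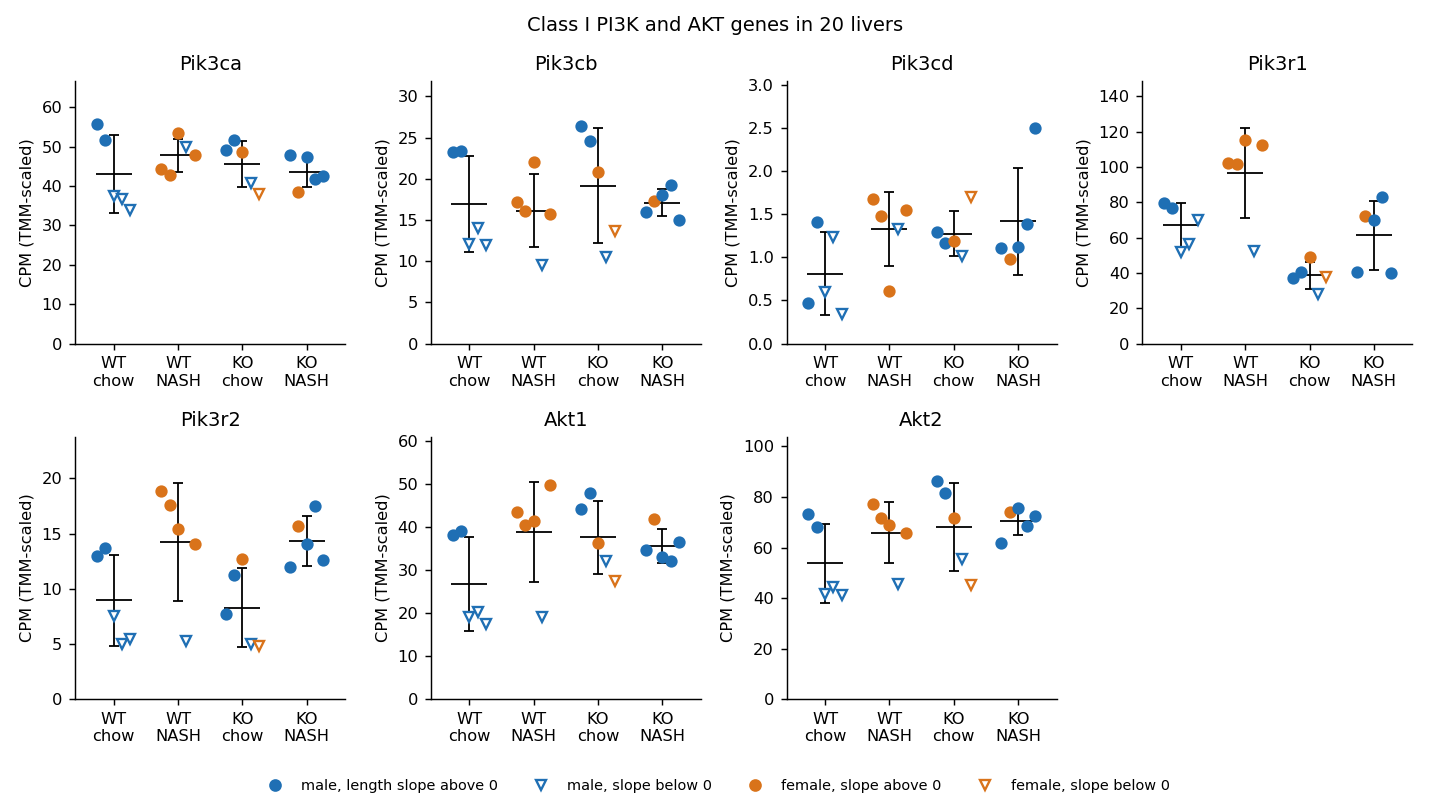
Levels in CPM (TMM-scaled, vertical axis from 0) of the class I catalytic genes Pik3ca, Pik3cb and Pik3cd, of the adaptor genes Pik3r1 and Pik3r2 and the kinase genes Akt1 and Akt2 in 20 livers by group. Bars give the mean ± SD of 5, colour the sex read from counts, and open triangles the 6 libraries with a length slope below 0. Every KO chow value of Pik3r1 (28.0 to 49.3 CPM) lies below every WT chow value (51.8 to 79.7 CPM).

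Pik3ca, the catalytic p110α that carries most hepatic insulin signalling, had the smallest standard error of the 8 members tested (0.158 on the log2 scale). It ranged from 33.9 to 55.9 CPM in WT chow and 42.9 to 53.6 in WT NASH, and in knockouts from 38.0 to 51.8 on chow and from 38.5 to 47.8 on the NASH diet. Its log2 differences lay between -0.13 and 0.15 over the 4 comparisons of groups. All 4 of its 95% intervals lay between -0.46 and 0.48, so changes beyond about that size fell outside them.

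Pik3cb, the p110β subunit, stood at 23.2, 23.3, 12.04, 14.1 and 11.99 CPM in WT chow and 17.2, 16.1, 22.04, 9.56 and 15.7 CPM in WT NASH. KO chow gave 26.4, 24.6, 20.8, 10.5 and 13.6 CPM, and KO NASH 15.1 to 19.2 CPM. The low values were the 6 libraries with a slope below 0. Over the other 14, KO NASH was lower than KO chow by a log2 difference of -0.48 (adjusted p = 0.039 in edgeR), against -0.17 (adjusted p = 0.723 in edgeR) over all 20.

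Pik3cd, the p110δ of white blood cells, was near the limit of detection, with 5 to 55 reads per library and 0.346 to 2.49 CPM. Its group means were 0.812 ± 0.477 CPM in WT chow and 1.33 ± 0.424 in WT NASH, against 1.27 ± 0.259 in KO chow and 1.42 ± 0.619 in KO NASH (SD, n = 5). KO NASH replicate 5 was the highest library. The 4 pan-leukocyte markers (Ptprc, Coro1a, Laptm5 and Cd53), none of them at 0 throughout, summed to 29.3 to 163 CPM in WT chow and 44.5 to 124 in WT NASH, and in knockouts to 34.9 to 217 on chow and 33.5 to 49.0 on the NASH diet. The part of those cells in the Pik3cd values was not tested.

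Pik3r2, the p85β adaptor, stood at 12.97, 13.7, 7.56, 5.03 and 5.40 CPM in WT chow and 18.9, 17.6, 15.4, 5.30 and 14.01 CPM in WT NASH. It was 7.69, 11.2, 12.7, 5.01 and 4.80 CPM in KO chow and 11.9, 15.6, 14.03, 17.5 and 12.6 CPM in KO NASH. The NASH groups had the higher means, 14.2 ± 5.34 and 14.3 ± 2.29 CPM against 8.94 ± 4.14 and 8.29 ± 3.59 CPM, and the groups overlapped. The log2 difference between diets was 0.67 in wild type (adjusted p = 0.252 in edgeR) and 0.79 in knockout livers (adjusted p = 0.184 in edgeR). With the length slope as a term these were 0.33 and 0.46. With sex as a term the wild-type difference was 0.23, and in males alone, where it rests on the 1 WT NASH male at 5.30 CPM against 14.01 to 18.9 CPM in the 4 females, it was -0.79.

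Akt2, the AKT form of hepatic insulin action, stood at 73.3, 68.1, 41.5, 44.3 and 41.4 CPM in WT chow and 77.1, 71.7, 68.8, 45.6 and 65.8 CPM in WT NASH. It was 86.4, 81.5, 71.6, 55.4 and 45.3 CPM in KO chow and 61.6, 74.2, 75.5, 68.4 and 72.3 CPM in KO NASH. The low libraries were again the 6 with a slope below 0. No difference between groups passed the test, and the interaction was -0.24 (95% interval -0.86 to 0.38, adjusted p = 0.917 in edgeR).

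Akt1, the more ubiquitous form, stood at 38.1, 39.2, 19.0, 20.3 and 17.4 CPM in WT chow and 43.5, 40.6, 41.3, 19.0 and 49.7 CPM in WT NASH. It was 44.2, 48.0, 36.4, 32.2 and 27.4 CPM in KO chow and 34.7, 41.9, 33.1, 32.0 and 36.4 CPM in KO NASH. The log2 difference between diets in wild type was 0.53 (adjusted p = 0.233 in edgeR). Without WT NASH replicate 4 it was 0.71 (adjusted p = 0.0496 in edgeR), with sex as a term 0.34, and over the 14 libraries with a slope above 0 it was 0.19.

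Levels of several members followed the length slope. In the 6 libraries with a slope below 0, Akt2 spanned 41.4 to 55.4 CPM against 61.6 to 86.4 CPM in the other 14, Pik3cb 9.56 to 14.1 against 15.1 to 26.4, and Pik3r2 4.80 to 7.56 against 7.69 to 18.9. Akt1 spanned 17.4 to 32.2 against 32.0 to 49.7, touching by 1 value. Pearson correlations with the slope over 20 libraries were 0.92 for Akt2, 0.84 for Pik3r2, 0.83 for Akt1 and 0.81 for Pik3cb. They were 0.66 for Pik3ca, 0.29 for Pik3cd, 0.24 for Pik3r1, 0.16 for Pik3c2a and -0.09 for Pik3c2g. Spearman correlations with the slope were lower for Akt2 (0.73), Pik3r2 (0.47), Akt1 (0.63) and Pik3cb (0.67). Of the members, Akt1 and Pik3r2 have the shortest exonic lengths (4098 and 4176 bases) and Pik3c2g the longest (12647). What ties a member's level to the slope was not tested. Genes and slope come from the same libraries, and the slope uses all well-expressed genes, so these are descriptions. Pik3c2g spanned 2.21 to 10.9 CPM in the 6 libraries and 1.43 to 13.2 in the 14.

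**Figure D3:**
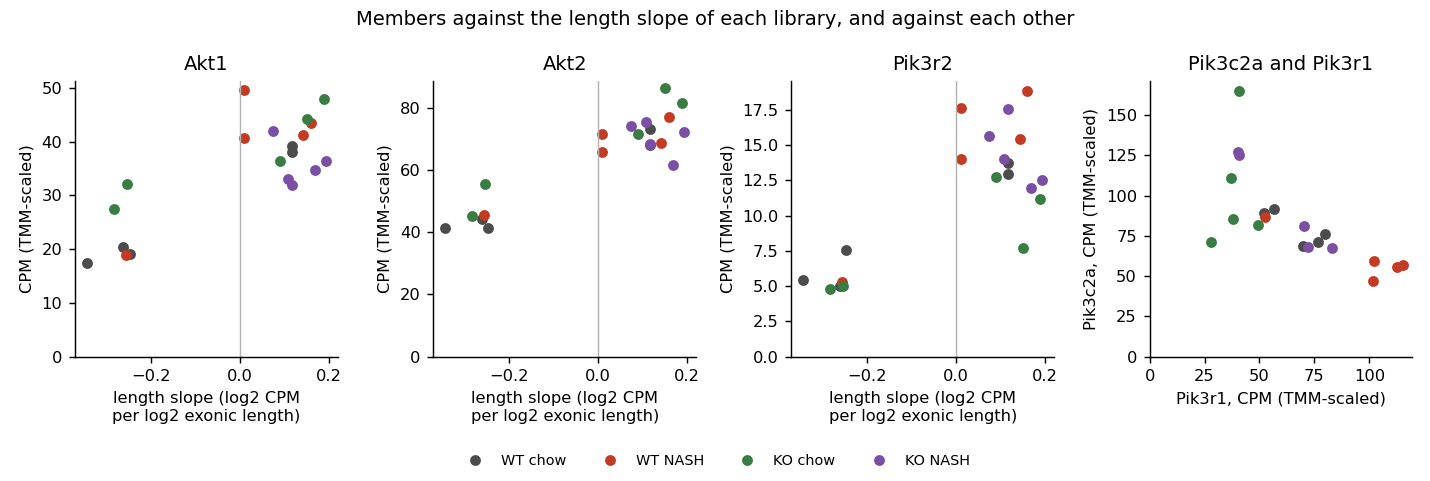
Levels of Akt1, Akt2 and Pik3r2 in CPM (TMM-scaled) against the length slope of each library, and Pik3c2a against Pik3r1, in 20 livers coloured by group. The 6 libraries left of 0 hold the low values of Akt2 (41.4 to 55.4 CPM). Pik3c2a and Pik3r1 run opposite to each other (Spearman correlation -0.78).

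By level per kilobase of exon, averaged over all libraries, the order was Akt2 (9.04 CPM per kb), Akt1 (8.47), Pik3c2a (7.57), Pik3r1 (6.54), Pik3ca (4.96), Pik3r2 (2.74), Pik3cb (2.41), Pik3c2g (0.399) and Pik3cd (0.193). Every pair of neighbours in that order overlapped over libraries except Pik3cb and Pik3c2g. Pik3ca supplied 64.4% to 68.4% of the summed class I catalytic level in the 4 group means, and Pik3cd 1.82% to 3.08%. Akt2 supplied 50.2% to 54.3% of the summed Akt1 and Akt2 level. Pik3r1 supplied 76.4% ± 6.45 of the adaptor pair in WT chow and 74.5% ± 4.65 in WT NASH, against 66.9% ± 6.68 in KO chow and 63.0% ± 4.82 in KO NASH (SD, n = 5).

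Of the 8 members other than Pik3c2g, edgeR called 0 in each of the 5 comparisons. Over all genes, edgeR called 5.93% between the diets in wild type (WT NASH against WT chow) and 5.53% between the genotypes on chow (KO chow against WT chow). It called 9.65% between the genotypes on the NASH diet (KO NASH against WT NASH), 0.139% for the interaction and 3.29% between the diets in knockouts (KO NASH against KO chow). At an unadjusted p under 0.05 in edgeR the members counted 1 between the diets in wild type (22.1% of all genes), 1 between the genotypes on chow (19.4%), 2 between the genotypes on the NASH diet (25.6%), 2 between the diets in knockouts (22.2%) and 0 for the interaction (8.25%). In the same order DESeq2 called 0, 1, 1, 0 and 0, each time Pik3r1, against 10.4%, 9.63%, 15.2%, 9.04% and 1.31% of all genes. Calls by limma voom with quality weights were 5, 4, 2, 0 and 2, against 40.6%, 40.4%, 23.8%, 12.7% and 13.5% of all genes. Median log2 differences of the 8 were 0.41, 0.26, 0.04, -0.01 and -0.15, against 0.01, 0.00, 0.00, -0.02 and -0.03 over all genes tested. The members were chosen on these samples, so the counts and medians describe them only. The pairs of comparisons with WT chow, WT NASH, KO chow or KO NASH in common share those libraries.

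**Figure D4:**
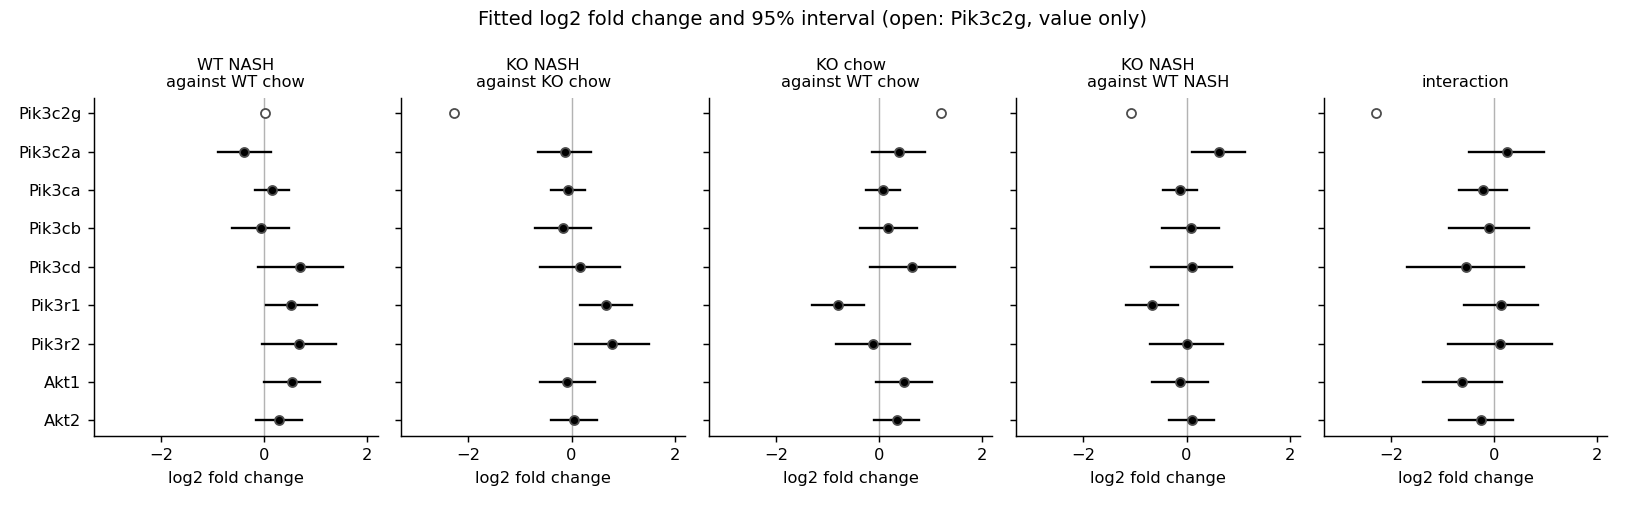
Log2 fold change of each of the 9 members in the 5 comparisons, with the 95% interval of the edgeR fit for the 8 members tested. The open point of Pik3c2g, chosen for its interaction, is shown without an interval. It lies at -2.29 for the interaction and at -2.27 for KO NASH against KO chow, while the other 8 interactions lie between -0.61 and 0.24.

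Beyond the members, 50 other genes of the pathway are given here by role, and all 50 were tested: further PI3K subunits, kinases upstream of AKT, lipid phosphatases, AKT inhibitors, AKT substrates, receptor and adaptors, and Rab5 GTPases. The list was drawn up with earlier results of these data known. Between the diets in wild type 1 rose and 2 fell, against 2.69% and 3.24% of all genes. Between the genotypes on chow 1 rose and 1 fell, against 3.03% and 2.49%. Between the genotypes on the NASH diet 1 rose and 2 fell, against 4.9% and 4.74%. In knockouts the diets differed for 2 that rose and 1 that fell, against 1.77% and 1.52%. The interaction called 0 in edgeR, with 3 at an unadjusted p under 0.05 (8.25% of all genes), 0 in DESeq2 (1.31%) and 12 in limma voom (13.5%). List medians were 0.12, 0.11, 0.04, 0.06 and -0.03 on the log2 scale in the order above.

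Of the 7 lipid phosphatases, which break down the lipids that PI3Ks make, 2 were called between the diets in each genotype and 1 between the genotypes on each diet. Over all genes, the calls between the diets were 5.93% in wild type and 3.29% in knockouts. Those between the genotypes were 5.53% on chow and 9.65% on the NASH diet. The role was not tested as a set. Inpp4a, which removes the 4-phosphate from PI(3,4)P2, stood at 26.9, 32.8, 34.5, 23.6 and 34.4 CPM in WT chow and 12.2, 13.9, 14.4, 16.6 and 12.3 CPM in KO chow. It fell by 1.13 on the log2 scale (SE 0.172, adjusted p = 0.000903 in edgeR). Its groups did not overlap, which with KO chow lower held for 2.65% of all genes. In KO NASH it was 24.2, 16.6, 21.0, 22.3 and 28.1 CPM, every library above those of KO chow at full precision, and rose by 0.69 against KO chow (SE 0.171, adjusted p = 0.0335 in edgeR). Groups not overlapping, with KO NASH higher, were found for 4.19% of all genes. That rise was lost without any 1 of KO chow replicates 1, 2 and 5 and KO NASH replicates 1, 3, 4 and 5 (adjusted p = 0.0511 to 0.101 in edgeR).

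Inpp4b, its paralogue, was low, at 0.684 to 3.24 CPM and 12 to 47 reads. It fell by 1.09 in KO NASH against WT NASH (SE 0.283, adjusted p = 0.0212 in edgeR), from 2.61 ± 0.463 to 1.22 ± 0.408 CPM. Its groups did not overlap, which with the knockout lower held for 6.44% of all genes. The call was lost without a low-count filter (adjusted p = 0.0549 in edgeR), in males alone (0.131) and in females alone (0.301). Inpp5k, a 5-phosphatase of PIP3, fell by 0.65 in WT NASH against WT chow (SE 0.182, adjusted p = 0.0385 in edgeR), from 13.9 ± 1.52 to 8.80 ± 1.90 CPM. Its groups did not overlap, which with WT NASH lower held for 3.25% of all genes. Without any 1 of WT chow replicates 2 to 5 and WT NASH replicates 1, 2 and 5, its adjusted p was 0.0539 to 0.111 in edgeR, and with sex as a term 0.281.

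Mtm1, the myotubularin that removes the 3-phosphate from endosomal PI3P, had lower means on the NASH diet in both genotypes. Its means were 23.8 ± 6.33 CPM in WT chow and 13.2 ± 4.14 in WT NASH, a log2 difference of -0.85 (SE 0.230, adjusted p = 0.0345 in edgeR). They were 30.4 ± 8.38 CPM in KO chow and 16.7 ± 1.78 in KO NASH, a difference of -0.86 (SE 0.228, adjusted p = 0.0436 in edgeR). The wild-type call was lost without any 1 of WT chow replicates 3, 4 and 5 and WT NASH replicates 1, 2, 3 and 5 (adjusted p = 0.0634 to 0.0975 in edgeR). It was also lost with sex as a term (adjusted p = 0.249 in edgeR). The 1 WT NASH male stood at 20.2 CPM, inside the WT chow range of 16.5 to 29.4 CPM, and the 4 females at 9.88 to 13.9 CPM. In males alone the wild-type difference was -0.26, which rests on that male. The knockout call was lost for 12 of the 20 left-out libraries (adjusted p = 0.0511 to 0.109 in edgeR), among them each KO NASH library, KO chow replicates 1, 2, 4 and 5, and WT NASH replicates 1, 2 and 3.

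Among the 12 AKT substrates, Foxo1, the transcription factor that AKT keeps out of the nucleus, stood at 41.8, 53.5, 30.2, 30.8 and 24.1 CPM in WT chow and 111, 86.6, 99.1, 60.6 and 111 CPM in WT NASH. It was 32.1, 38.7, 31.9, 15.03 and 14.3 CPM in KO chow and 40.6, 48.6, 32.0, 50.6 and 46.0 CPM in KO NASH. WT NASH stood above every other library of the series.

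Foxo1 rose by 1.37 in WT NASH against WT chow (SE 0.280, adjusted p = 0.00664 in edgeR), and groups not overlapping, with WT NASH higher, were found for 2.9% of all genes. With sex as a term its adjusted p was 0.104 in edgeR at a difference of 1.27. It fell by 1.10 in KO NASH against WT NASH (SE 0.278, adjusted p = 0.0176 in edgeR). The second call was lost without KO NASH replicate 3 (adjusted p = 0.0516 in edgeR) and with sex as a term (adjusted p = 0.0854 in edgeR). In males alone the difference was 0.72 between the diets in wild type and -0.49 between the genotypes on the NASH diet. Both values rest on the 1 WT NASH male. Females alone gave -1.04 between the genotypes on the NASH diet, resting on the 1 KO NASH female. The Foxo1 interaction was not among those called.

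Foxo3, a related substrate, stood at 22.9, 25.97, 38.3, 20.5 and 18.0 CPM in KO chow and 57.3, 43.3, 34.6, 58.5 and 61.4 CPM in KO NASH. It rose by 1.02 (SE 0.279, adjusted p = 0.0484 in edgeR), with KO NASH replicate 3 inside the range of KO chow. The call was lost for 13 of the 20 left-out libraries (adjusted p = 0.0518 to 0.118 in edgeR), which were all of KO NASH and all but replicate 3 of KO chow, and WT NASH replicates 1, 2, 3 and 5. When KO NASH replicates 1 and 5 were added together as 1 sample, the diet differences in knockouts of Foxo3 (adjusted p = 0.0974 in edgeR), Mtm1 (0.085) and Inpp4a (0.085) were not called. In WT chow Foxo3 stood at 68.5 and 73.3 CPM in replicates 1 and 2 and at 24.1 to 32.4 CPM in the 3 libraries with a slope below 0.

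Mtor, the kinase of the complex that phosphorylates AKT and of the growth complex below it, rose in KO chow against WT chow by 1.23 (SE 0.324, adjusted p = 0.0309 in edgeR). It stood at 17.7, 18.7, 13.6, 10.3 and 8.73 CPM in WT chow and 47.4, 49.2, 32.0, 15.97 and 17.4 CPM in KO chow. Within each group the libraries with a slope below 0 were the low ones, and over the 14 others the difference was 1.25 (adjusted p = 0.0101 in edgeR). Without any 1 of WT chow replicates 3, 4 and 5 and KO chow replicates 1 and 2, the adjusted p over the remaining libraries was 0.063 to 0.105 in edgeR.

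Trib3, a pseudokinase that binds AKT, rose by 1.72 in KO NASH against WT NASH (SE 0.497, adjusted p = 0.0335 in edgeR). The KO NASH values were 57.5, 9.40, 12.9, 8.15 and 53.4 CPM against 9.10, 6.41, 10.4, 11.9 and 5.23 CPM in WT NASH, so replicates 1 and 5 carried the difference. These are the 2 similar libraries with high Pik3c2a and low Pik3r1. With them summed into 1 sample the difference was 1.34 (adjusted p = 0.11 in edgeR). The call was also lost without any 1 of WT NASH replicates 1, 2 and 5 and KO NASH replicates 1 and 5 (adjusted p = 0.0503 to 0.115 in edgeR) and with sex as a term (0.96, adjusted p = 0.313 in edgeR).

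**Figure D5:**
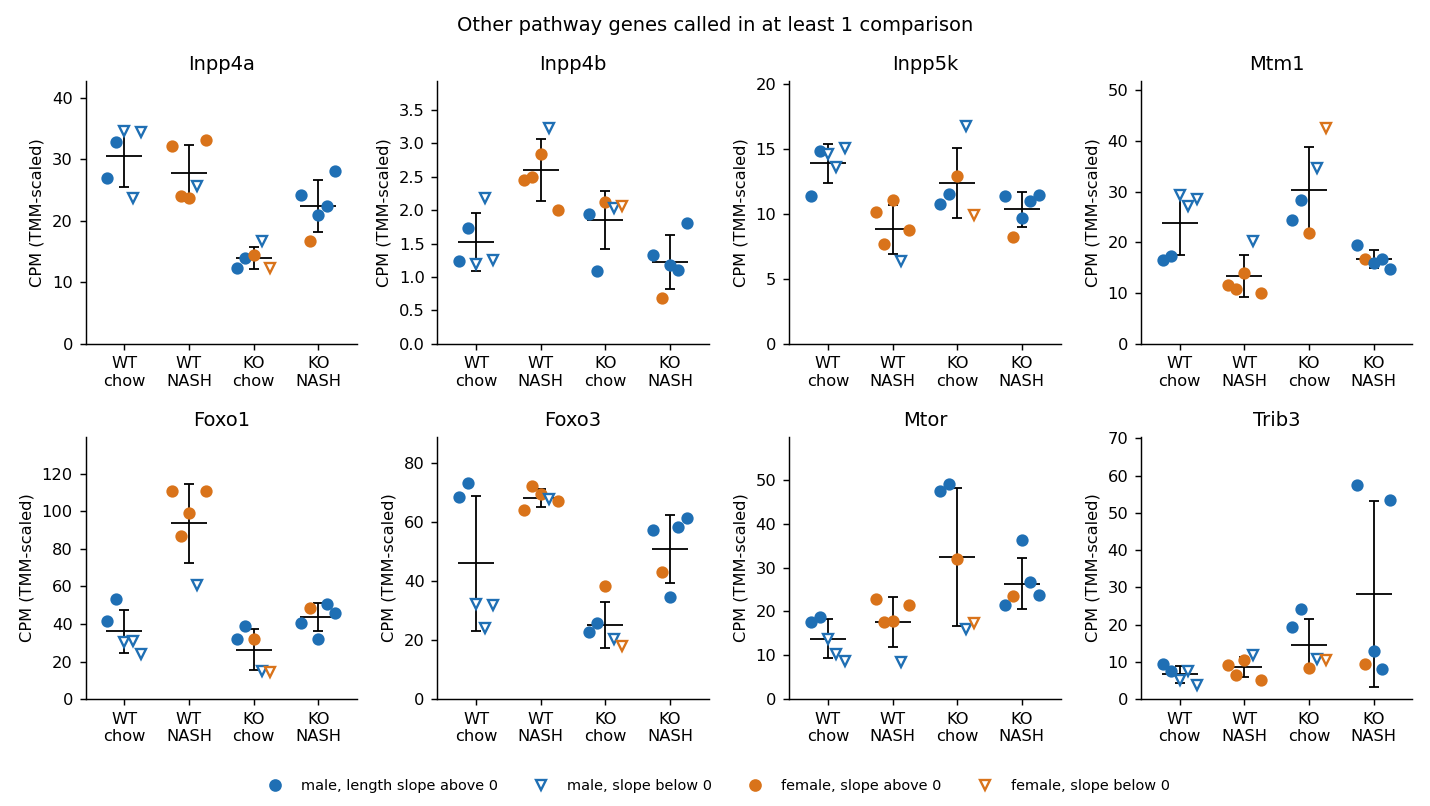
Levels in CPM (TMM-scaled, vertical axis from 0) of the pathway genes described above that were called in at least 1 comparison, in 20 livers by group, with bars at the mean ± SD of 5. Colour gives sex read from counts and open triangles the 6 libraries with a length slope below 0. Trib3 exceeds 50 CPM only in KO NASH replicates 1 and 5 (57.5 and 53.4 CPM), and Foxo1 is highest in WT NASH.

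Spearman correlations of the other members with Pik3c2g over 20 libraries ran from -0.33 for Pik3r2 to 0.33 for Akt1. Pearson correlations of deviations from the group means were 0.53 for Akt1, 0.42 for Pik3cd, 0.41 for Akt2 and 0.40 for Pik3cb, and those of the other 4 members lay between -0.07 and 0.25. Likeness was ranked over 8984 genes averaging 5 CPM or more, with names of predicted genes, clones and pseudogenes passed over. Among these, the genes most like Pik3c2g were Hacl1 (Spearman 0.77), Abcg5 (0.74), Pank1 (0.73), Nsfl1c (0.71) and Rad23b (0.71). Hacl1 encodes a peroxisomal fatty acid lyase, Abcg5 one subunit of the sterol exporter of the canalicular membrane, and Pank1 a pantothenate kinase of coenzyme A synthesis. Hacl1 averaged 517 ± 179 CPM in WT chow and 322 ± 61.5 in WT NASH, against 673 ± 371 in KO chow and 209 ± 27.6 in KO NASH (SD, n = 5). Unlike Pik3c2g, it was also lower in WT NASH than in WT chow by its means.

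The genes that ran most opposite were Enpp2 (Spearman -0.89), Ptrf (-0.79), Slc39a11 (-0.78), Trib1 (-0.76) and Dnajc18 (-0.74). Enpp2 encodes autotaxin, the secreted enzyme that makes lysophosphatidic acid. It averaged 82.5 ± 17.8 CPM in WT chow and 74.2 ± 21.0 in WT NASH, against 54.8 ± 24.7 in KO chow and 158 ± 43.9 in KO NASH (SD, n = 5), the mirror of the Pik3c2g order at its extremes. These correlations are over the same 20 libraries, which share group and depth, and carry no test.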

How the data were processed

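RNA-seq was read for 20 livers in 4 groups of 5, and the total per library was 9958935 to 20601955 counts. The authors deposited a table of whole-number read counts per gene, aligned with HISAT2 2.0.4 to GRCm38 per the submitters' processing notes. The annotation and the counter, like the strand setting, were not given in the sources used here. Columns were matched to mice by name, and those that write the NASH diet as HFD were matched by genotype and number.

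Genes with low counts were removed (edgeR 4.0.16 filterByExpr, minimum count 10), leaving 14440, which hold 99.9% of counts. TMM scaling and edgeR's quasi-likelihood test were fitted over all 4 groups in R 4.3.3. Comparisons used Benjamini-Hochberg adjusted p-values over all genes tested, with calls under 0.05, and the common biological coefficient of variation was 39.0%. Scripts were tested on simulated data. Alternatives used DESeq2 1.42.0 and limma 3.58.1 (voom), other scalings, filters, sex and slope terms, and each library left out. The length slope used 9520 genes, with exonic lengths from GENCODE (93.5% of tested genes matched). Sex was called male at 100 or more Y-linked counts.

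Named genes were the 9 members, Pck1, every gene of the pathway list called at least once, and the 5 genes most and least like Pik3c2g. The list has 50 genes, and 1 further gene is not reported here and enters no count. The members and lists were chosen with earlier results of these data known. The labels do not say whether replicate numbers pair mice across groups, and the main fit used no pairing.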

Additional observations from a re-analysis of the deposited data

Results flagged for a closer look

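Among 17 genes in 4 groups, 68 sets of 5 libraries were examined for a library far from the rest, and 3 had one whose gap to its neighbour exceeded 0.71 of the range of its group. Chance gives about 1 in 20 such sets. Pik3cd was high in KO NASH replicate 5, at 2.49 CPM with the next library at 1.39. Pik3r1 was low in WT NASH replicate 4, at 52.5 CPM with the next at 102. Inpp4b was low in KO chow replicate 2, at 1.09 CPM with the next at 1.95. WT NASH replicate 4 is the male of its group and has a length slope below 0, and the part of either in its Pik3r1 value was not tested.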

How the results depend on the processing

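No alternative reversed a called value. Of 1742 alternative values for 51 results on single genes, 1613 stayed called or stayed uncalled, 100 lost the call and 29 gained one. The 1613 include 83 uncalled values whose sign differed from that of the main fit.

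Member calls other than 0 were as follows. The share of all genes called by the same rule is in parentheses. With limma voom, the diets in wild type gave 5 (40.6%), the genotypes 4 on chow (40.4%) and 2 on the NASH diet (23.8%), and the interaction 2 (13.5%). DESeq2 gave 1 between the genotypes on chow (9.63%) and 1 on the NASH diet (15.2%). Sex as a term gave 1 for KO chow against WT chow (5.84%). The length slope as a term gave 1 there (11.5%) and 1 for KO NASH against WT NASH (16.5%). Both terms gave 2 for KO chow against WT chow (13.8%) and 1 for KO NASH against KO chow (9.37%). The 14 libraries with a slope above 0, an alternative chosen after seeing the data, gave 2 for KO NASH against WT NASH (20.3%) and 1 for KO NASH against KO chow (7.69%).

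Pathway calls for WT NASH against WT chow were 3 (5.93% of all genes called by the same rule). They became 22 with voom (40.6%), 1 with only the groups compared (2.74%) and 0 with sex (1.11%). With both terms they were 1 (5.01%), and over the 14 libraries 1 (4.88%). For KO chow against WT chow 2 (5.53%) became 5 with DESeq2 (9.63%), 22 with voom (40.4%) and 1 with only the groups compared (2.2%). The count was 11 with slope (11.5%), 14 with both terms (13.8%), 4 in males alone (6.23%) and 8 over the 14 libraries (5.33%). For KO NASH against WT NASH 3 (9.65%) became 6 with DESeq2 (15.2%), 11 with voom (23.8%) and 5 with only the groups compared (15.2%). The count was 1 with sex (4.33%), 12 with slope (16.5%), 5 with both terms (10.5%) and 11 over the 14 libraries (20.3%). For KO NASH against KO chow 3 (3.29%) became 0 without a low-count filter (0.96%), 7 with voom (12.7%), 5 with slope (6.37%) and 9 with both terms (9.37%). The count was 0 in males alone (0.37%), 0 with KO NASH replicates 1 and 5 summed (1.23%) and 8 over the 14 libraries (7.69%). The interaction went from 0 (0.139%) to 12 with voom (13.5%). The cause of these shifts was not tested.

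The Pik3c2g log2 differences became -0.96 between the diets in wild type, -0.14 between the genotypes on the NASH diet and -1.52 for the interaction in males alone, and -1.81 between the diets in knockout females. Leaving out 1 library at a time gave -0.11 to 0.17 between the diets in wild type, 1.08 to 1.38 between the genotypes on chow, -1.22 to -0.95 between them on the NASH diet, -2.43 to -2.14 between the diets in knockouts and -2.46 to -2.16 for the interaction. Member calls then ranged from 0 to 2, 0 to 1, 0 to 1, 0 to 0 and 0 to 0 in that order, and pathway calls from 1 to 5, 1 to 6, 2 to 4, 0 to 4 and 0 to 0. The shares of all genes called with 1 library left out are not given here, so these ranges describe the lists only.

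Replicate numbers showed no clear pairing of the mice, on which the labels are silent. Deviations of same-numbered libraries correlated above 0.1 in 12 of 30 pairs (median 0.01, range -0.49 to 0.66), and 5 of 20 libraries were closest to their own number. With the replicate number as a block, member calls stayed at 0 in all 5 comparisons, and Trib3 (adjusted p = 0.0737 in edgeR) and Foxo3 (0.0532) were not called. Over all genes, the block called 7.11% between the diets in wild type (5.93% without it) and 3.7% in knockouts (3.29%). Between the genotypes it called 6.11% on chow (5.53%) and 10.1% on the NASH diet (9.65%), and for the interaction 0.0277% (0.139%). Depth limits Pik3cd (5 to 55 reads), Inpp4b (12 to 47) and Pik3c2g (15 to 295). Sex and diet nearly coincide in wild type and cannot be told apart there beyond the term used. Sex and genotype on the NASH diet are also largely confounded, with WT NASH mostly female and KO NASH mostly male.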
